A study of Homo sapiens
Mus musculus with 16 samples.

Results

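The genes described here are 7 that have been linked to the uptake of albumin-bound drugs: SPARC (ENSG00000113140), CAV1 (ENSG00000105974), CAV2 (ENSG00000105971) and FCGRT (ENSG00000104870) in the human counts, and Sparc (ENSMUSG00000018593), Cav1 (ENSMUSG00000007655) and Cav2 (ENSMUSG00000000058) in the mouse counts. They were chosen as a named list of Ensembl IDs, for what they are known to do, from 106846 IDs in all. The 58051 human and 48795 mouse IDs stand in separate matrices. All 7 had counts in every library and passed the filter on low counts, which left 18131 human and 15074 mouse genes.

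Libraries came from tumours of MDA-MB-231, an established human triple-negative breast cancer line, grown in the mammary fat pad of Balb/c nude mice and taken out on day 50. Each mouse had been given 2 M cells in 50 µl of PBS and Matrigel, and all injections of drug or vehicle were intraperitoneal. The 4 groups had 4 mice each: vehicle, nab-paclitaxel (Abraxane, 30 mg/kg on days 15, 22 and 29), phenelzine (40 mg/kg daily from day 15), and the combination of both drugs on those schedules. Nude mice lack a normal thymus and so most T cells. The sources used here do not state the age or sex of the mice. Human counts are taken to stand for tumour cells and mouse counts for the host tissue within the tumour.

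Nab-paclitaxel is paclitaxel, a drug that stabilises microtubules, carried on particles of albumin. Albumin can leave blood vessels in caveolae, flask-shaped pits of the plasma membrane built on caveolin-1 (CAV1); caveolin-2 (CAV2) needs caveolin-1 to reach the surface. SPARC is a secreted glycoprotein of the matrix that binds collagen and albumin, made in quantity by fibroblasts and other stromal cells, and it has been proposed to hold albumin-bound drug in tumours. FCGRT encodes the heavy chain of the neonatal Fc receptor, which pairs with beta-2-microglobulin and returns albumin and IgG from endosomes to the cell surface. Phenelzine is an inhibitor of monoamine oxidases.

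On the human RefSeq annotation of GRCh38.p14, SPARC lies on chromosome 5 from 151661096 to 151686915 and FCGRT on chromosome 19 from 49512661 to 49526428. CAV2 and CAV1 are neighbours on chromosome 7: CAV2 from 116499738 to 116508541 and CAV1 from 116525009 to 116561185, with 16467 bases between them. Counts are summed over whole genes, so no exon or isoform is resolved.

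Human totals were 11.1 to 34.5 M counts and mouse totals 3.46 to 27.4 M. The mouse share of all counts was 21.1% ± 11.5 in vehicle tumours, 36.5% ± 18.1 in nab-paclitaxel tumours, 12.6% ± 3.54 in phenelzine tumours and 48.3% ± 22.1 in combination tumours (SD, n = 4 each). On the first principal component of the human genes, which held 48.7% of their variance, nab-paclitaxel 1 and 4 and combination 1 and 3 scored 72.7 to 125 and the other 12 libraries -56.6 to 5.37. These 4 libraries had mouse shares of 41.9% to 71.2%, and they are called the 4 libraries that stand apart. All 4 had nab-paclitaxel. Leaving them out keeps only nab-paclitaxel 2 and 3 and combination 2 and 4 beside all vehicle and phenelzine libraries, so it is not a balanced check. The smallest count of any of the 7 genes was 128, for human SPARC, with an exact 95% Poisson interval of 107 to 152, which covers counting error only. That interval is narrow beside the spread between mice given below.

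By edgeR's quasi-likelihood test, the main test here, 0 of the 7 genes passed in any comparison. DESeq2 called SPARC and FCGRT in 1 comparison each, without its share of all human genes to set beside them. RNA of the SPARC pair was almost all mouse, RNA of both caveolin pairs was mostly human, and human SPARC differed up to 39.9-fold between tumours. Levels are given in CPM, counts per 1 M counts of the same species after TMM scaling, a correction for differences in composition between libraries. CPM values are not divided by gene length, so they are compared between libraries and not between genes.

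Human SPARC was the most variable of the 4 human genes. In vehicle tumours 1 to 4 it stood at 47.4, 13.9, 4.86 and 76.6 CPM, and with nab-paclitaxel at 194, 36.0, 35.4 and 123 CPM. With phenelzine it stood at 11.4, 33.4, 26.5 and 8.06 CPM, and with the combination at 51.8, 14.3, 192 and 28.8 CPM. The 3 highest values belong to nab-paclitaxel 1, combination 3 and nab-paclitaxel 4, all among the libraries that stand apart, and the lowest belongs to a vehicle tumour. Group means ran from nab-paclitaxel (97.1 ± 76.7 CPM) through the combination (71.8 ± 81.8) and vehicle (35.7 ± 32.8) to phenelzine (19.8 ± 12.1; SD, n = 4 each), and every pair of neighbours in this order overlapped. Its SD of log2 CPM within groups was 1.43, above that of 96.8% of human genes tested, whose median was 0.38.

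Averaged over both states of phenelzine, the difference of human SPARC with nab-paclitaxel from without was 1.65 on the log2 scale, or 3.13-fold (SE 0.63, 95% interval 0.30 to 2.99). The unadjusted p was 0.0199 and the edgeR adjusted p 0.0822. The log2 difference of nab-paclitaxel from vehicle was 1.44 (SE 0.89, adjusted p = 0.377), that of the combination from phenelzine 1.85 (SE 0.90, adjusted p = 0.232), and that of phenelzine from vehicle -0.85 (SE 0.88, adjusted p = 1.0). Without the 4 libraries that stand apart the average nab-paclitaxel difference of SPARC was 0.06 (adjusted p = 0.978). SPARC is itself among the human genes from which that component was computed. DESeq2 called the average difference at 1.69 (adjusted p = 0.0385), and edgeR did so without combination 2, the lowest SPARC value with nab-paclitaxel, at 1.83 (adjusted p = 0.0415). It was 1.07 without combination 3 (edgeR adjusted p = 0.235), 1.09 by limma voom (adjusted p = 0.225) and 0.48 with the mouse share as a covariate (edgeR adjusted p = 0.934). Single libraries also carried much of the pairwise SPARC differences: nab-paclitaxel against vehicle was 0.87 without nab-paclitaxel 1, the combination against phenelzine 0.68 without combination 3 and phenelzine against vehicle -0.15 without vehicle 4. The combination against phenelzine was 0.12 without the 4 libraries that stand apart.

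**Figure D1:**
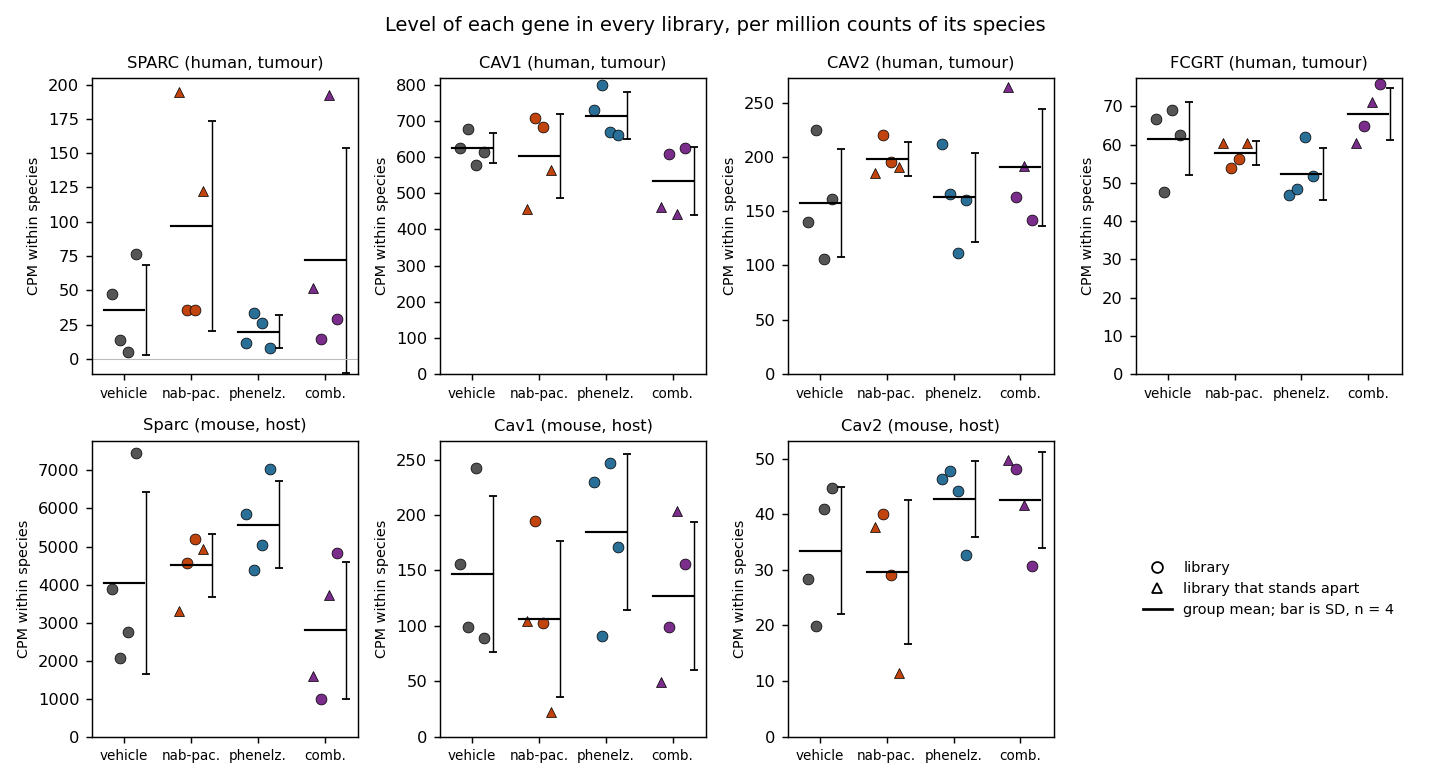
Level of each of the 7 genes in CPM (counts per 1 M counts of its own species, TMM-scaled, linear axes) for the 16 libraries by group; points are libraries, triangles the 4 libraries that stand apart, horizontal lines group means and bars SD with n = 4. Human SPARC reaches 192 and 194 CPM in 2 of the triangles and lies at or below 76.6 CPM in all vehicle and phenelzine tumours, whereas human CAV1 stays between 442 and 799 CPM.

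**Figure D2:**
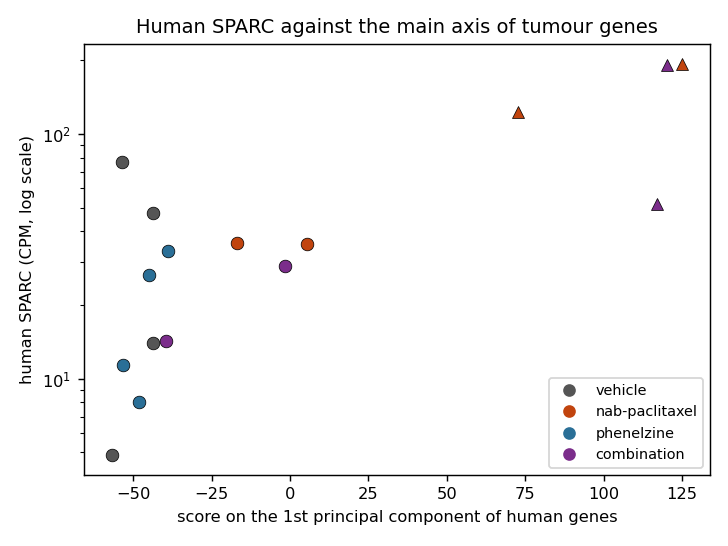
Human SPARC level (CPM, log scale) against the score of each library on the first principal component of the human genes; colours are groups and triangles the 4 libraries that stand apart. Of the 4 triangles, 3 lie above every other library in SPARC, and the fourth, combination 1 at 51.8 CPM, lies below vehicle 4 at 76.6 CPM.

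Human CAV1, the scaffold of caveolae, varied little. Vehicle tumours 1 to 4 held 625, 678, 579 and 613 CPM, and phenelzine tumours 728, 799, 669 and 660 CPM. Nab-paclitaxel tumours held 457, 706, 683 and 563 CPM, and combination tumours 462, 607, 442 and 624 CPM. The 4 lowest values of all 16 were those of the libraries that stand apart, and the other 4 libraries with nab-paclitaxel lay at 607 to 706 CPM, among the vehicle and phenelzine values. The order of group means was phenelzine (714 ± 64.0 CPM), vehicle (624 ± 41.0), nab-paclitaxel (602 ± 115) and the combination (534 ± 94.99; SD, n = 4 each), with overlap between each pair of neighbours. Within groups the SD of log2 CPM was 0.21, at the 21.5th percentile of human genes.

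The CAV1 difference of the combination from phenelzine was -0.42 on the log2 scale (SE 0.15, 95% interval -0.74 to -0.10, unadjusted p = 0.0138, edgeR adjusted p = 0.125), and these 2 groups did not overlap. Without the 4 libraries that stand apart it was -0.21 (adjusted p = 0.413). Averaged over both states of phenelzine, the nab-paclitaxel difference of CAV1 was -0.24 (SE 0.11, unadjusted p = 0.0432, adjusted p = 0.131), and -0.03 without the 4 libraries. The interaction of the drugs, which asks whether the combination departs from the sum of both single effects, was -0.37 for CAV1 (SE 0.21, adjusted p = 1.0).

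Human CAV2, the partner of caveolin-1 and its neighbour on chromosome 7, did not follow CAV1 across the 16 libraries (Pearson's r = -0.17). Over the 12 libraries that do not stand apart, Pearson's r was 0.55 and Spearman's rho 0.66. It stood at 140, 224, 106 and 161 CPM in vehicle tumours 1 to 4 and at 186, 221, 195 and 191 CPM with nab-paclitaxel. Phenelzine tumours held 212, 166, 112 and 160 CPM and combination tumours 264, 163, 192 and 142 CPM. Nab-paclitaxel tumours lay close together, while the other groups spanned 1.86- to 2.11-fold and all groups overlapped. Means ran from nab-paclitaxel (198 ± 15.5 CPM) and the combination (190 ± 53.4) to phenelzine (163 ± 41.0) and vehicle (158 ± 49.7; SD, n = 4 each). The average nab-paclitaxel difference of CAV2 was 0.28 on the log2 scale (SE 0.17, 95% interval -0.08 to 0.63, edgeR adjusted p = 0.247).

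Human FCGRT, the albumin-recycling receptor, had the smallest spread of the 7 genes, with an SD of log2 CPM within groups of 0.17. Vehicle tumours 1 to 4 held 66.8, 47.7, 69.1 and 62.6 CPM, and nab-paclitaxel tumours 60.5, 54.0, 56.3 and 60.4 CPM. Phenelzine tumours held 47.0, 48.5, 62.1 and 51.9 CPM, and combination tumours 60.5, 64.8, 71.1 and 75.8 CPM. The combination was highest (68.0 ± 6.75 CPM), then vehicle (61.6 ± 9.61), nab-paclitaxel (57.8 ± 3.18) and phenelzine (52.4 ± 6.81; SD, n = 4 each). Combination tumours lay above all nab-paclitaxel tumours, by as little as 60.53 against 60.48 CPM, and overlapped vehicle and phenelzine. The order of nab-paclitaxel and phenelzine was not tested, and their values overlapped.

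FCGRT differed by 0.38 on the log2 scale between combination and phenelzine (SE 0.13, 95% interval 0.11 to 0.65, unadjusted p = 0.00979, edgeR adjusted p = 0.109). DESeq2 called this difference at 0.41 (adjusted p = 0.0307), and without the 4 libraries that stand apart it was 0.43 (adjusted p = 0.260). Between combination and nab-paclitaxel FCGRT differed by 0.24 (SE 0.13, adjusted p = 1.0), and its average nab-paclitaxel difference was 0.14 (SE 0.09, adjusted p = 0.269). The interaction of the drugs was 0.47 for FCGRT (SE 0.18, 95% interval 0.08 to 0.86), with an unadjusted p of 0.0201, within the lowest 1.11% of human genes, and an adjusted p of 1.0.

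In the host, mouse Sparc varied 7.42-fold over the 16 libraries. In vehicle tumours 1 to 4 it stood at 3884, 2079, 2754 and 7446 CPM, and with nab-paclitaxel at 3314, 4570, 5202 and 4922 CPM. With phenelzine it stood at 5843, 4371, 5049 and 7038 CPM, and with the combination at 1606, 1004, 3733 and 4841 CPM. Combination 1 and 2 were the lowest of all and vehicle 4 the highest, while the nab-paclitaxel and phenelzine groups each spanned at most 1.61-fold. Means ran in the order phenelzine (5575 ± 1146 CPM), nab-paclitaxel (4502 ± 833), vehicle (4041 ± 2389) and combination (2796 ± 1797; SD, n = 4 each). Neighbours in this order overlapped; phenelzine was not tested against nab-paclitaxel.

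The Sparc difference of the combination from phenelzine was -0.996 on the log2 scale (SE 0.47, 95% interval -2.01 to 0.02, edgeR adjusted p = 0.281), and that from nab-paclitaxel -0.69 (SE 0.47, adjusted p = 0.857). Without the 4 libraries that stand apart these were -0.91 (adjusted p = 0.740) and -0.72 (adjusted p = 1.0). The interaction was -1.15 for Sparc (SE 0.67, adjusted p = 0.644), and the average nab-paclitaxel difference -0.42 (SE 0.33, adjusted p = 0.503). With nab-paclitaxel alone Sparc differed from vehicle by 0.16 (SE 0.47, adjusted p = 0.927). Leaving out 1 library moved the average Sparc difference to between -0.61 (without combination 4) and -0.17 (without vehicle 4), with -0.27 without combination 2. The difference of the combination from nab-paclitaxel ran from -1.09 without combination 4 to -0.40 without combination 2.

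Mouse Cav1 was the most variable of the 3 host genes, with an SD of log2 CPM within groups of 0.93 against a median of 0.40 for mouse genes tested. Vehicle tumours 1 to 4 held 156, 99.5, 242.8 and 89.2 CPM, and nab-paclitaxel tumours 104, 194, 103 and 22.0 CPM. Phenelzine tumours held 230, 91.3, 247 and 171 CPM, and combination tumours 49.2, 99.3, 204 and 156 CPM. All groups overlapped, and the lowest values were those of nab-paclitaxel 4 and combination 1. Means were 185 ± 70.2 CPM with phenelzine, 147 ± 70.4 with vehicle, 127 ± 67.1 with the combination and 106 ± 70.4 with nab-paclitaxel (SD, n = 4 each), with SDs as large as the steps between neighbours or larger. The average nab-paclitaxel difference was -0.51 on the log2 scale (SE 0.39, 95% interval -1.35 to 0.33, edgeR adjusted p = 0.493), and -0.31 without vehicle 3 or -0.34 without nab-paclitaxel 4.

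Mouse Cav2 stood at 28.4, 19.9, 40.9 and 44.7 CPM in vehicle tumours 1 to 4 and at 37.6, 40.0, 29.0 and 11.5 CPM with nab-paclitaxel. Phenelzine tumours held 46.3, 47.7, 44.1 and 32.7 CPM and combination tumours 49.7, 48.1, 41.7 and 30.7 CPM. Phenelzine (42.7 ± 6.82 CPM) and the combination (42.5 ± 8.60) had near-equal means, followed by vehicle (33.5 ± 11.4) and nab-paclitaxel (29.6 ± 12.9; SD, n = 4 each), and all groups overlapped. The average phenelzine difference of Cav2 was 0.44 on the log2 scale (SE 0.23, 95% interval -0.06 to 0.94, unadjusted p = 0.0781, edgeR adjusted p = 0.993), and the average nab-paclitaxel difference -0.09 (SE 0.23, adjusted p = 0.859). Nab-paclitaxel 4 held the lowest level of both host caveolins, whereas combination 1, second lowest in Cav1, had the highest Cav2.

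**Figure D3:**
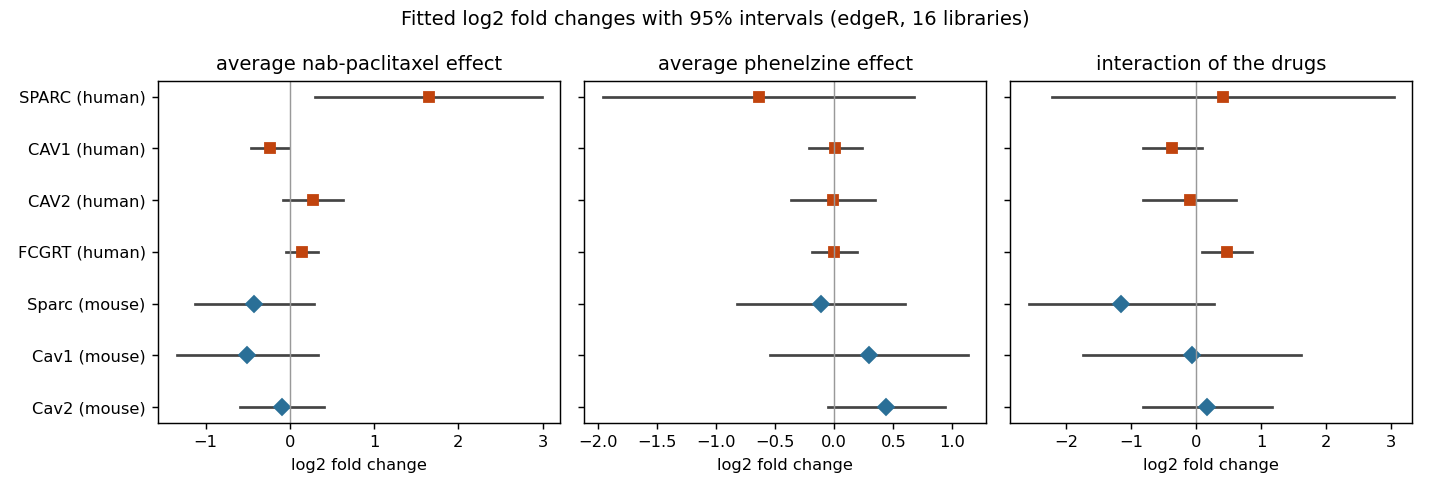
Fitted log2 fold changes of the 7 genes (edgeR, all 16 libraries; squares human, diamonds mouse) with 95% intervals as lines, for the average effect of each drug and for their interaction; the axes of the 3 panels differ in range. Intervals that leave 0 out, unadjusted for the number of genes, are those of SPARC and CAV1 for nab-paclitaxel and of FCGRT for the interaction.

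Counted over the comparisons, 0 of the 4 human genes passed edgeR's test with nab-paclitaxel against vehicle, where 0.165% of all human genes did. For phenelzine against vehicle it was 0 of 4 beside 0%, for the combination against vehicle 0 of 4 beside 0.734%, and for the combination against nab-paclitaxel 0 of 4 beside 0.00552%. For the combination against phenelzine it was 0 of 4 beside 2.27%, for the average effect of nab-paclitaxel 0 of 4 beside 17.3%, and for the average effect of phenelzine and the interaction 0 of 4 beside 0%. At an unadjusted p under 0.05 there were 2 of 4 human genes for the average effect of nab-paclitaxel (SPARC and CAV1), beside 34.8% of all human genes. There were 2 of 4 for the combination against phenelzine (CAV1 and FCGRT), beside 23.0%, and 1 of 4 for the interaction (FCGRT), beside 544 of 18131. The other comparisons had 0 of 4, beside 2.20% to 22.4% of all human genes. DESeq2 called 1 human gene for the average effect of nab-paclitaxel, 1 for the combination against phenelzine and 0 elsewhere, and limma voom called 0 throughout. The shares of all human genes called by DESeq2 and limma voom are not given here, so these counts cannot be set against a background.

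Of the 3 mouse genes, 0 passed in any comparison, by edgeR, DESeq2 or limma voom, and 0 had an unadjusted edgeR p under 0.05. Of all mouse genes, 3.81% (average effect of phenelzine) to 20.7% (average effect of nab-paclitaxel) had such a p, with 18.1% for the combination against phenelzine. The shares of all mouse genes that passed were 0% for nab-paclitaxel and for phenelzine against vehicle, 0.0332% for the combination against vehicle, 0.0199% for it against nab-paclitaxel and 0.00663% for it against phenelzine. They were 0.796% for the average effect of nab-paclitaxel, 0.0265% for that of phenelzine and 0% for the interaction. The median log2 change of the 3 genes for the average effect of nab-paclitaxel was -0.42, beside -0.01 over all mouse genes, and that of the 4 human genes 0.21, beside -0.01 over all human genes.

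Groups of 4 failed to overlap in 2 of these gene comparisons. CAV1 was 1 of 4 human genes for the combination against phenelzine, where 10.9% of all human genes did not overlap, and FCGRT 1 of 4 for the combination against nab-paclitaxel, where 1.54% did not. The count was 0 of 4 for nab-paclitaxel (15.1% of all genes), phenelzine (2.89%) and the combination (11.2%) against vehicle. In the host it was 0 of 3 for nab-paclitaxel (5.61%), phenelzine (2.02%) and the combination (5.27%) against vehicle, and for the combination against nab-paclitaxel (3.87%) and against phenelzine (11.2%).

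The share of each gene's RNA that came from the host was read from the counts of both orthologs in a library. Of all counts of the SPARC pair, 92.7% to 99.4% were mouse (median 97.5%), above the mouse share of the library as a whole in 16 of 16 libraries. For the CAV1 pair the mouse part was 2.06% to 34.8% (median 5.02%) and for the CAV2 pair 2.45% to 30.9% (median 4.89%), below that of the library in 16 of 16. Counting error was small beside these gaps: the widest 95% Wilson interval of any share spanned 2.80 percentage points. Differences in length between the orthologs were not corrected for, and reads assigned to the wrong species were not assessed.

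In the SPARC pair the group means of the mouse share lay close together, at 96.2% ± 3.50 (vehicle), 96.8% ± 0.79 (nab-paclitaxel), 97.2% ± 1.98 (phenelzine) and 97.6% ± 1.39 (combination; SD, n = 4 each). In the CAV1 pair it was 6.11% ± 3.74, 9.55% ± 9.94, 3.45% ± 1.05 and 18.8% ± 12.3, and in the CAV2 pair 5.38% ± 2.49, 8.72% ± 8.86, 3.76% ± 1.06 and 19.9% ± 11.03 in the same order. Combination 1, 2 and 3 held 20.3%, 14.7% and 34.8% mouse counts of the CAV1 pair and combination 4 only 5.44%, next to mouse shares of 71.2%, 47.4%, 55.9% and 18.6% of all counts. The average nab-paclitaxel difference was 9.38 points for CAV1 (exact permutation p = 0.0396, two-sided) and 9.72 points for CAV2 (exact permutation p = 0.0429). Of 21 such tests over 3 pairs and 7 comparisons, 0 passed adjustment, with a lowest adjusted p of 0.30 (exact permutation tests). Without the 4 libraries that stand apart these differences were 3.16 and 4.80 points.

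**Figure D4:**
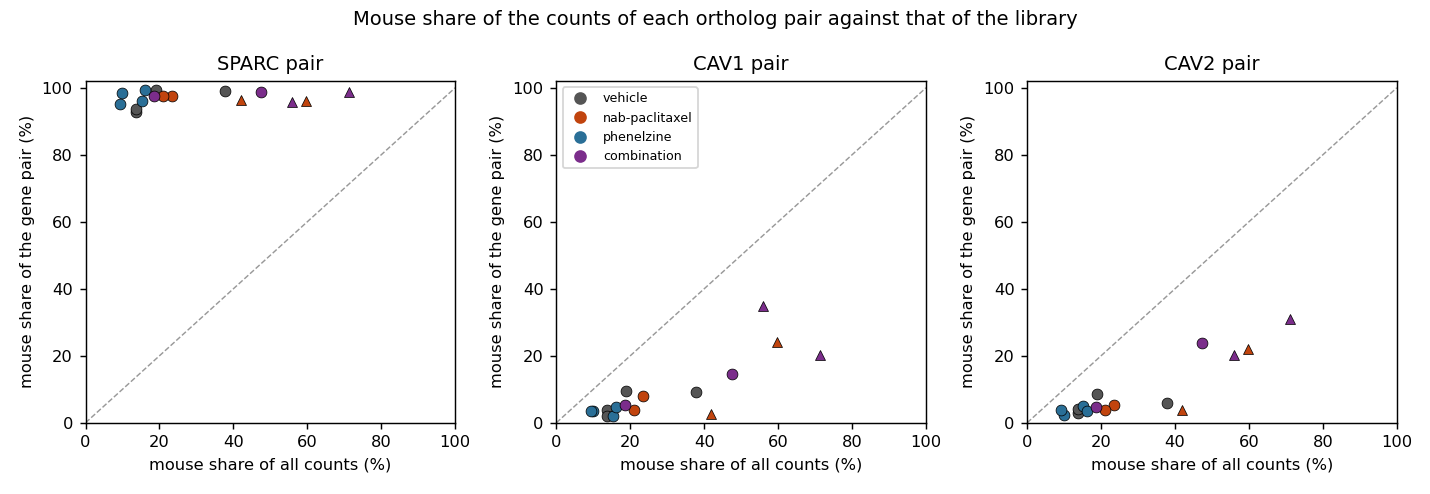
Mouse share of the counts of the SPARC, CAV1 and CAV2 ortholog pairs (%, vertical) against the mouse share of all counts of the library (%, horizontal); points are the 16 libraries coloured by group, triangles the 4 that stand apart, and the dashed line marks equal shares. All SPARC points lie at 92.7% or above, and all caveolin points lie under the line.

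Host CPM over tumour CPM compares the pair after each has been scaled to its own species. This ratio was 17.1 to 873 for the SPARC pair (median 129), 0.0390 to 0.461 for CAV1 (median 0.239) and 0.0605 to 0.395 for CAV2 (median 0.210). On the log2 scale the SPARC ratio averaged 7.33 ± 1.26 in vehicle, 5.90 ± 1.47 in nab-paclitaxel, 8.34 ± 1.26 in phenelzine and 5.69 ± 1.37 in combination tumours (SD, n = 4 each). The average nab-paclitaxel difference was -2.04 for SPARC (8 against 8 libraries, exact permutation p = 0.0110, two-sided, adjusted p = 0.231 over 21 tests) and -0.91 without the 4 libraries that stand apart. For CAV1 it was -0.42 (exact permutation p = 0.382) and for CAV2 -0.44 (exact permutation p = 0.204), and without nab-paclitaxel 4 these were -0.12 and -0.24. With 4 against 4 libraries the smallest p of the exact test is 0.0286, so such a comparison could not pass adjustment over 21 tests unless others had p-values as low.

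Human SPARC had 0.615 to 7.90 counts for every 100 mouse Sparc counts, a 12.8-fold range over libraries. For every 100 mouse counts of the same pair, human CAV1 had 188 to 4749 counts and human CAV2 223 to 3978. The sources used here do not say how the authors divided reads between species. What part of the human SPARC counts could be mouse reads was not tested. Nor was the part of the mouse Cav1 and Cav2 counts that could be human reads, which would enter their levels, ratios and mouse shares.

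CPM of all counts is taken per 1 M counts of human and mouse together, by library totals and without TMM scaling. On this scale a gene's level also holds how much of each tissue the tumour contained. In bulk tumour RNA, fewer cells of a type and less RNA per cell cannot be told apart. On this scale host Sparc averaged 712 ± 234 in vehicle, 1546 ± 536 in nab-paclitaxel, 702 ± 274 in phenelzine and 1156 ± 688 in combination tumours (SD, n = 4 each). The 8 libraries with nab-paclitaxel held 525 to 2127 and the 8 without 462 to 1092, with overlap, a difference of 0.86 on the log2 scale (exact permutation p = 0.0155, two-sided, adjusted p = 0.126 over 14 tests). Host Cav2 ran from 4.69 to 33.6 with nab-paclitaxel and from 3.60 to 8.19 without, a log2 difference of 1.19 (exact permutation p = 0.0269, adjusted p = 0.126). Human CAV1 ran from 131 to 556 with nab-paclitaxel and from 405 to 672 without, a log2 difference of -0.79 (exact permutation p = 0.0188, adjusted p = 0.126). The average nab-paclitaxel difference of host Sparc was thus above 0 on the scale of all counts and below 0 on that of mouse counts, where nab-paclitaxel alone lay above vehicle, and none of these differences passed the test. Without the 4 libraries that stand apart these 3 log2 differences were 0.35 for Sparc, 0.76 for Cav2 and -0.23 for CAV1.

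**Figure D5:**
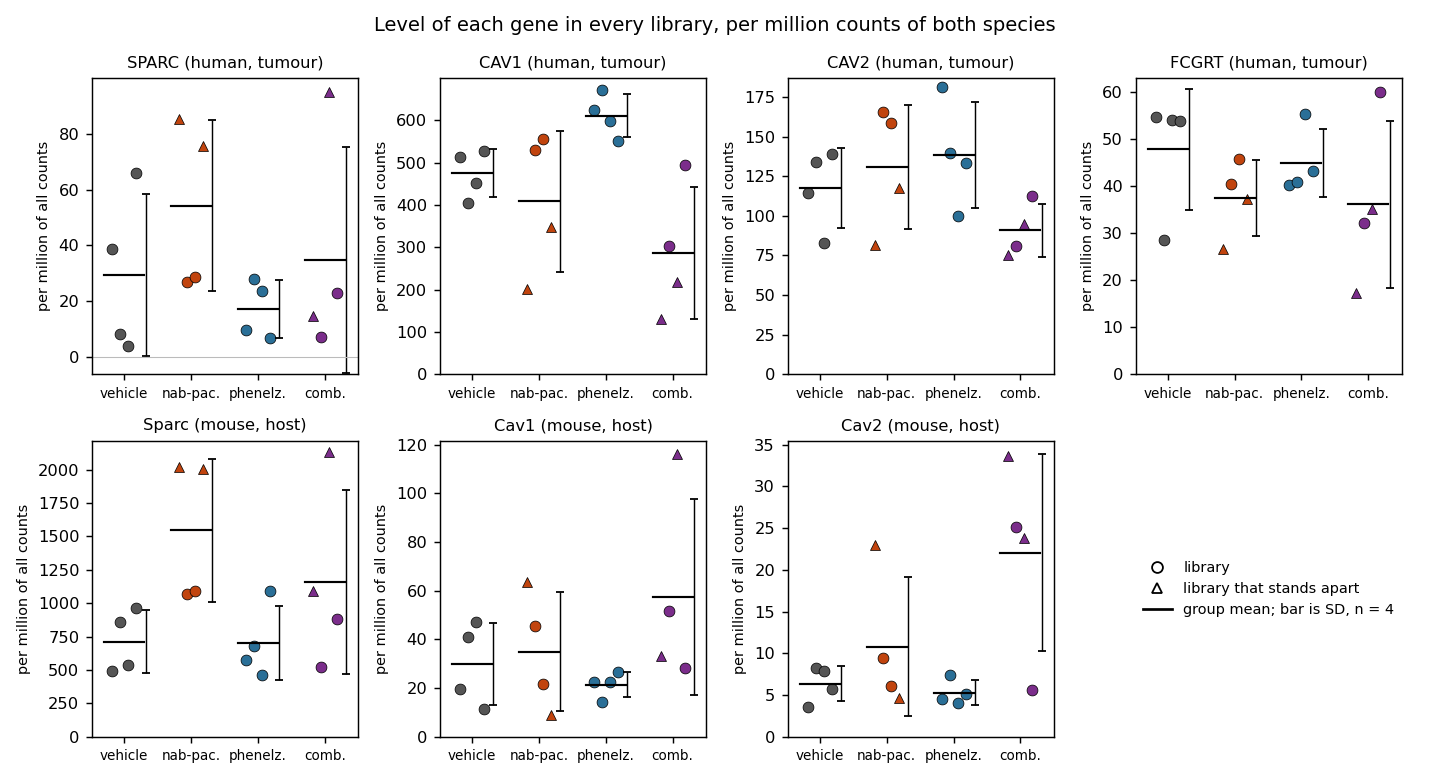
Level of each gene in CPM of the counts of both species together (no TMM scaling, linear axes) in the 16 libraries by group; points are libraries, triangles the 4 libraries that stand apart, lines group means and bars SD with n = 4. Host Sparc is at 2000 to 2127 in 3 of the triangles and at or below 1092 in all vehicle and phenelzine tumours.

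Across the 16 libraries, 15 relations were computed between the genes or with the mouse share, and 4 passed adjustment by Pearson's r and 0 by Spearman's rho (lowest adjusted p = 0.0641, permutation tests). CAV1 was lower where the mouse share was higher (r = -0.81, permutation p = 0.00029, adjusted p = 0.00435; rho = -0.63, permutation p = 0.0103, adjusted p = 0.0773). Its r was -0.67 without the 2 libraries of most extreme share, -0.68 within groups and -0.23 over the 12 libraries that do not stand apart. The 4 left out for the last value are also the 4 lowest in CAV1. Host Sparc was lower in CPM where the mouse share was higher (r = -0.65, permutation p = 0.00632, adjusted p = 0.0394; rho = -0.68, permutation p = 0.00427, adjusted p = 0.0641). For this pair of measures r was -0.59 without the 2 most extreme libraries, -0.87 over those 12 and -0.55 within groups. Over those 12 its rho was -0.62. Among them combination 2 had both the highest mouse share (47.4%) and the lowest Sparc (1004 CPM). These measures share their libraries, and the part of tissue makeup in them was not tested.

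Human SPARC and host Sparc in CPM had r = 0.13 (permutation p = 0.637, adjusted p = 0.710; rho = -0.05, permutation p = 0.855, adjusted p = 0.965). In CPM of all counts, the same pair gave r = 0.62 (permutation p = 0.0105, adjusted p = 0.0394; rho = 0.49, permutation p = 0.0576, adjusted p = 0.173), falling to 0.42 without the 2 most extreme libraries and to 0.22 over the 12. Within groups that r was 0.48. The fourth relation to pass was CAV2 with Cav2 in CPM of all counts, with r = -0.64 (permutation p = 0.00849, adjusted p = 0.0394). Its rho was -0.44 (permutation p = 0.0868, adjusted p = 0.200), and its r was -0.43 and -0.37 in the smaller sets and -0.48 within groups. In CPM of their own species, CAV2 and Cav2 had r = -0.12 (permutation p = 0.663, adjusted p = 0.710) and rho = 0.06. The scale of all counts also holds the mouse share, which enters human and mouse levels in opposite directions, and its part was not tested. The neighbours CAV1 and CAV2 had r = -0.17 (permutation p = 0.527, adjusted p = 0.659; rho = 0.11, permutation p = 0.697, adjusted p = 0.950) and 0.55 over the 12 libraries. Host Cav1 and Cav2 had r = 0.53 (permutation p = 0.0421, adjusted p = 0.089; rho = 0.00, permutation p = 1.0, adjusted p = 1.0), and 0.20 without nab-paclitaxel 4 and combination 1.

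The number of genes with a like pattern differed between members. Among mouse genes with a mean of at least 5 CPM, 425 of 12113 had r over 0.8 with Sparc over the 16 libraries, and 1 had so with Cav1 and 8 with Cav2. The closest to Sparc were ENSMUSG00000010830 (r = 0.99) and ENSMUSG00000028641 (r = 0.99). Among 11575 human genes, 1157 had r over 0.8 with CAV1, 84 with SPARC, 5 with CAV2 and 1 with FCGRT, and the closest to SPARC were ENSG00000141469 (r = 0.90) and ENSG00000196387 (r = 0.88). These are descriptions over libraries that share their tissue makeup; the matrices carry IDs without symbols, so the genes were not named, and the lists of caveola coat, albumin receptor, SPARC family, collagen, endocytosis and cell type marker genes could not be matched.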

How the data were processed

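Paired-end mRNA libraries of 16 tumours were analysed from 2 gene matrices, human and mouse, in which the authors deposited whole-number counts without normalization. The submitters' processing notes list the builds hg38 and mm10 and, without their roles, StringTie, Picard, edgeR, HISAT2 2.04 and Trimmomatic 0.36. The division of reads between species and any use of strand: not given in the sources used here. Columns were mapped to samples by the sample names in the labels, and 0 columns were left unused.

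Each matrix was tested whole with edgeR 4.0.16 (R 4.3.3): TMM, low-count filter (minimum count 10), 1 mean per group over 16 libraries, 12 residual degrees of freedom, quasi-likelihood F test, Benjamini-Hochberg adjustment over all genes tested, threshold 0.05. Adjusted p-values are edgeR's unless another test is named. SE was taken from the log2 fold change and F. Log2 CPM used a prior count of 2. Single values were compared by exact permutation tests, two-sided; for averages, labels were permuted within each state of the other drug. Correlations used 100000 permutations over all 16 libraries without regard to group (scipy 1.17.1), so differences between the groups can enter their p-values. Each library is 1 mouse, so p-values measure the spread between mice and library preparation together.

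The 7 genes were named by rule, with genes of like pattern (highest Pearson r, mean of at least 5 CPM) and members of 14 gene lists; 0 IDs matched a symbol in the RefSeq table used, so the lists could not be applied and symbols come from the choice of the genes. Members, lists and tests were chosen with earlier results of these data known. The scale of all counts was added after seeing the data. The labels do not say that replicate numbers pair the mice, and the main test did not use them. In human genes, 4 of 24 same-numbered pairs and 9 of 72 other pairs had a correlation of deviations over 0.1. In mouse genes these were 11 of 24 (median r = 0.097) and 26 of 72 (median r = -0.009). Whether the numbers mark shared handling was not tested. No library repeated another of its group (chi-square per degree of freedom at least 43.8 in human and 14.1 in mouse genes). On simulated counts with nab-paclitaxel changed against vehicle, 54% of 2-fold and 98% of 4-fold changes were recovered among 17943 human genes, and 34% and 98% among 15050 mouse genes. Every simulated gene had the median dispersion of its matrix (0.0728 human, 0.0812 mouse), and no library stood apart. These rates therefore do not hold for more variable genes, such as SPARC and Cav1, with SDs of log2 CPM within groups of 1.43 and 0.93. DESeq2 1.42.0, limma 3.58.1 voom and other settings served as alternatives.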

Additional observations from a re-analysis of the deposited data

Results flagged for a closer look

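Human FCGRT was the gene for which the effect of nab-paclitaxel took opposite signs in the 2 states of phenelzine in every library. Relative to the mean of vehicle tumours, all 4 nab-paclitaxel tumours were lower, with a mean log2 CPM difference of -0.0784. Yet these 4, at 54.0 to 60.5 CPM, lay within the vehicle range of 47.7 to 69.1 CPM. The fitted log2 difference was -0.09 (SE 0.13, edgeR adjusted p = 0.712). Relative to the mean of phenelzine tumours, all 4 combination tumours were higher, with a mean difference of 0.38. The interaction was tested: it was 0.47 (SE 0.18, unadjusted p = 0.0201) and did not pass adjustment over all human genes (edgeR adjusted p = 1.0). It was 0.58 without the 4 libraries that stand apart (edgeR adjusted p = 0.666). A rule on single libraries compared the gap between a library and its nearest neighbour with the range of its group of 4. It flagged no library in the 28 sets of gene and group examined. That does not mean that no single library carried a difference. For SPARC, the log2 difference of the combination from phenelzine was 1.85 with all libraries and 0.68 without combination 3.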

How the results depend on the processing

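All reported counts were 0, and some alternatives left out a library outside the groups compared. For phenelzine against vehicle, the average phenelzine effect and the interaction, 0% of all human genes passed the main test. A count of 0 could hardly move there, so its agreement between settings says little. Counts of called genes, and of ratio and mouse share tests that passed, were as reported in 426 of 429 alternatives. The exceptions were DESeq2, which called 1 human gene (SPARC) for the average nab-paclitaxel effect and 1 (FCGRT) for the combination against phenelzine, and edgeR without combination 2, which called 1 (SPARC), against 0 to 1 over all libraries left out in turn. The shares of all genes called in these 3 settings are not given here. Since 0 genes passed the main test, signs could turn only in differences that had not passed it. Those named below are not all. Over all settings SPARC ran from -0.73 to 1.72 for the combination against vehicle and from -0.78 to 1.01 for the interaction. Sparc ran from -0.92 to 0.12 for the combination against vehicle. With the mouse share as a covariate, the average nab-paclitaxel difference was -0.0060 for CAV2, 0.20 for Sparc and 0.000894 for Cav1; that of SPARC was 0.48. That of Cav2 ran from -0.18 to 0.0457 with 1 library left out, above 0 without vehicle 4 or nab-paclitaxel 4. SPARC for nab-paclitaxel against vehicle was -0.00113 without the 4 libraries that stand apart, and the SPARC mouse share difference ran from -0.0344 to 1.07 points with 1 library left out, below 0 without vehicle 1. The causes were not tested. With the replicate block, which the labels do not tie to shared animals, 0 genes were called and the average SPARC difference was 1.44 (edgeR adjusted p = 0.173). The smallest count of any of the 7 genes was 128, for SPARC; which of depth and the number of mice limits the calls was not compared.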
